A study of Caenorhabditis elegans with 4 samples.

Results

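Chromosome II carried 1771 of the 11796 NURF-1 peaks that the authors deposited for the series as a whole, a list that holds 11781 nuclear and otherwise only mitochondrial peaks. The members are every peak of that list placed on chromosome II, with no choice made on score or width. Each one was marked by whether it overlapped, by at least 1 bp, a peak of the separate replicate 1 list and of the replicate 2 list. Each was also assigned by its midpoint to the left arm (below 4.879 Mb), the centre (4.879 to 12.02 Mb) or the right arm (above 12.02 Mb) of the chromosome. Positions are on the WormBase WS220 assembly.

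The chromatin came from whole L3 larvae of the wild-type Caenorhabditis elegans strain N2, a mixed population of males and hermaphrodites kept at 20 °C. There were 2 libraries of chromatin immunoprecipitated with SDQ2940, an affinity-purified rabbit polyclonal antibody raised against a fragment of NURF-1, and 2 input DNA libraries. Frozen ground worms were crosslinked in all 4 libraries with EGS for 20 minutes and then with EGS plus formaldehyde for 10 minutes. All tissues of the larva are mixed in such chromatin, and no library from worms lacking NURF-1 was analysed here, so the specificity of the antibody has no check in these values. Whether the replicates were grown as separate cultures is not stated in the labels, and their spread may be technical.

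NURF-1 is the C. elegans counterpart of BPTF, the largest subunit of the nucleosome remodelling factor NURF. In this complex an ISWI-class ATPase (ISW-1 in worms) slides nucleosomes, while the BPTF subunit carries domains that in other animals bind acetylated histones and histone H3 methylated at lysine 4, a mark of active promoters. The nurf-1 gene itself lies on chromosome II. The autosomes of C. elegans have no single centromere and are instead divided into a central domain, rich in conserved and broadly expressed genes and poor in recombination, and a pair of arms that recombine more and hold more repeats and more heterochromatin. The question taken up here is how NURF-1 peaks were spread over these domains of chromosome II, how strong they were and how far the replicates shared them.

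Peaks on II were about as frequent as its length would give, with 15.0% of nuclear peaks on 15.2% of nuclear length. The whole-series list held 116 peaks per Mb of II (95% exact Poisson interval 111 to 121), the replicate 1 list 49.8 (46.3 to 53.5) and the replicate 2 list 116 (111 to 122). Over the 2 replicate lists the mean was 83.1 ± 47.1 peaks per Mb (SD, n = 2), a spread set by the shorter replicate 1 list of 761 peaks on II against 1779 in replicate 2. In the whole-series list II came below III (161), I (156) and IV (118) and above V (88.2) and X (87.0). The interval of IV (113 to 123) overlapped that of II, and IV and II were also neighbours in each replicate list, at 49.3 and 49.8 per Mb in replicate 1 and at 117 and 116 in replicate 2. Peaks covered 5.51% of II in the whole-series list, 1.63% in replicate 1 and 5.53% in replicate 2. The median II peak was 361 bp wide and scored 18.26 in the whole-series list. The score is the authors' own, on a scale that is not stated, and is compared only within a list.

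No test was made between chromosomes or domains, since peaks are not replicates of the experiment and there were 2 ChIP libraries. Intervals on shares are Wilson intervals at 95%, and all intervals cover counting error only. They treat peaks as independent, although 42.3% of II peaks had a neighbour within 1 kb, so they may be too narrow. The lists give no read counts, so the depth behind a peak is unknown. No input signal was analysed here, and a local difference in coverage cannot be told apart from a difference in binding.

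The left arm was the sparse part of chromosome II. It held 426 peaks, or 87.3 per Mb (79.2 to 96.0), the centre 944, or 132 per Mb (124 to 141), and the right arm 401, or 123 per Mb (111 to 136). The right arm thus lay close to the centre and its interval overlapped that of the centre, whereas the interval of the left arm lay below both. Both replicate lists had this order. In replicate 1 the densities by domain were 36.7 per Mb in the left arm, 57.8 in the centre and 51.9 in the right arm. In replicate 2 they were 87.9, 135 and 119 per Mb.

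The ratios between domains were much steadier than the densities, which differed between the replicates with the length of their lists. The centre was 1.58 times as dense as the left arm in replicate 1 and 1.53 times in replicate 2 (mean 1.55 ± 0.03, SD, n = 2). It was 1.12 and 1.13 times as dense as the right arm. The right arm was 1.41 times as dense as the left arm in replicate 1 and 1.35 times in replicate 2. Each ratio was above 1 in both replicate lists, but the spread between the lists does not measure counting error. For centre and right arm the Poisson intervals overlapped in replicate 1 (52.4 to 63.7 and 44.3 to 60.3 per Mb). They also overlapped in replicate 2 (126 to 144 and 107 to 131 per Mb). In the whole-series list the centre was 1.07 times as dense as the right arm. For the centre against both arms together, the ratio was 1.35 in replicate 1, 1.34 in replicate 2 and, for whole-series peaks, 1.30 (1.18 to 1.43 from the Wilson interval of the centre's share).

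**Figure D1:**
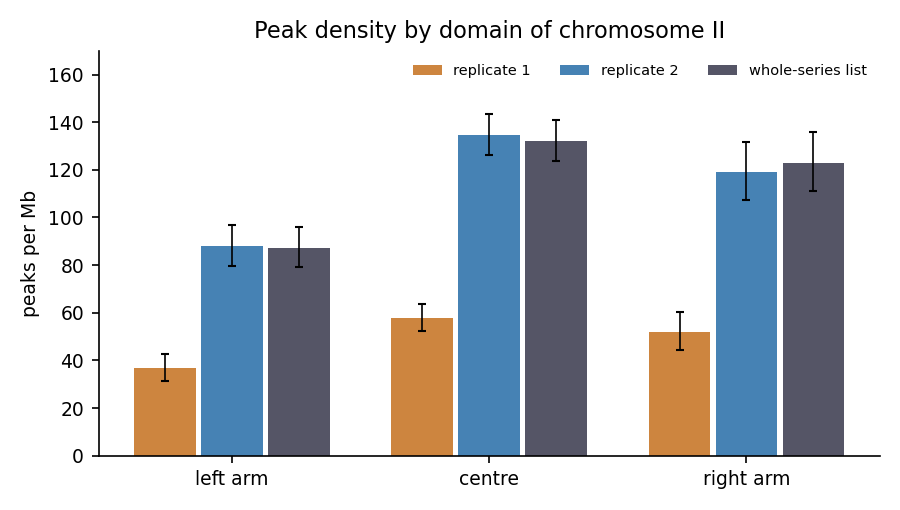
Peaks per Mb (vertical axis) in the left arm, centre and right arm of chromosome II, for the replicate 1, replicate 2 and whole-series lists. Bars start at 0 and error bars are exact Poisson 95% intervals of the count; in each list the left arm is lowest, at 36.7, 87.9 and 87.3 peaks per Mb.

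Centre peaks were also wider, so the contrast was larger in bases than in peaks. Median width was 308 bp in the left arm, 400 bp in the centre and 335 bp in the right arm of the whole-series list. Peaks covered 3.63% of the left arm, 6.86% of the centre and 5.40% of the right arm. Counted in covered bases, the centre exceeded the arms by a ratio of 1.58. In replicate 1 the median widths were 252, 296 and 283 bp from the left arm to the right arm, and in replicate 2 they were 294, 407 and 345 bp. The left arm had the narrowest and the centre the widest median in all 3 lists.

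Scores differed less at the low end than at the high end. The median whole-series score was 17.33 in the left arm, 21.12 in the centre and 15.35 in the right arm. The upper quartile was 56.9, 83.6 and 62.1 in the same order, while the lower quartile was 8.07, 6.95 and 7.49. The centre therefore had the lowest lower quartile and the highest upper quartile of the 3 domains. Of the 100 best-scored peaks of II, 67 lay in the centre, 16 in the left arm and 17 in the right arm. The centre makes up 46.7% of the length of II and held 53.3% of its peaks (51.0 to 55.6).

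Against both arms pooled, the excess of the centre lay among the stronger and the weakest peaks. Split into 5 score groups of 354 or 355 peaks, the best-scored group (96.03 and above) held 29.1 peaks per Mb in the centre and 18.1 in the arms, a ratio of 1.61. The next group had a ratio of 1.60. The middle group had 23.4 peaks per Mb in the centre and 23.0 in the arms, a ratio of 1.02, and the group below it a ratio of 0.995. In the lowest-scored group (up to 6.36, with only part of the peaks tied at 6.36) the ratio was 1.43, with 27.6 and 19.3 peaks per Mb. These ratios near 1 pool unlike arms. In the middle group the left arm held 21.1 peaks per Mb and the right arm 25.8, below and above the centre. In the group below it the left arm held 19.7, the centre 23.1 and the right arm 28.5. In both groups the right arm was thus denser than the centre, unlike for all peaks of II. The left arm lay below the centre in all 5 groups. Peaks tied at a bound (6.36 or 12.21) were split by position, from the left end. The ties at 6.36 kept in the lowest-scored group all lay in the left arm. Every centre and right-arm tie at 6.36 went to the group above. The densities of these groups depend partly on that split. No counting interval was computed for these ratios.

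In steps of 1 Mb the counts fell from 94 peaks in the first Mb to 71 in the fourth. They then rose to 109 in the fifth and lay between 122 and 147 in each of the 7 steps from the sixth to the twelfth. The thirteenth held 105, the fourteenth 124 and the fifteenth 126. The last 279 kb held 47 peaks, which corresponds to 168 per Mb, the highest value of any step, from a short stretch. The replicate 2 list had the same outline, with 75 peaks in the fourth Mb and 153 in the seventh. In replicate 1 the lowest counts were 31 in the second and 32 in the fourth Mb, and the highest was 71 in the ninth.

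**Figure D2:**
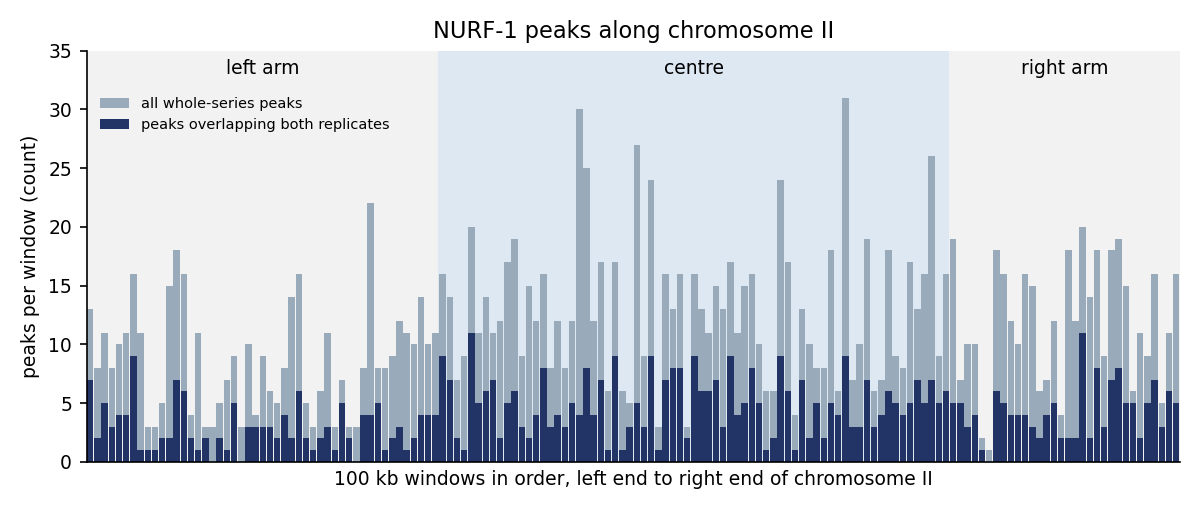
Whole-series peaks (pale bars) and those overlapping both replicates (dark bars) per window of 100 kb, in order along chromosome II; the vertical axis is a count and shading marks the domains. Windows hold 1 to 31 peaks, and the median window holds 8 in the left arm, 13 in the centre and 12 in the right arm.

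No window of 100 kb on II was without a whole-series peak. Over 152 full windows, the lowest held 1 peak, the median 11 and the highest 31. In the left arm the median was 8 (SD 4.58, 49 windows), in the centre 13 (SD 6.23, 71 windows) and in the right arm 12 (SD 5.33, 32 windows). The windows of each domain spread widely and those of the domains overlapped. Peaks overlapping both replicates were missing from 4 windows, 3 of them in the left arm (II, 1700001 to 1800000, 2100001 to 2200000 and 3700001 to 3800000) and 1 in the right arm (II, 12500001 to 12600000). The last of these held a single peak, and with the window before it made a stretch of 200 kb with 3 peaks, inside an arm that was otherwise dense. Across the windows, replicate 1 and replicate 2 counts had a Spearman's rho of 0.62 and a Pearson's r of 0.58, as a description of windows that share their libraries.

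The 3 longest single gaps of II lay close together in the left arm, although the emptiest 100 kb window of the chromosome was in the right arm. These gaps between neighbouring whole-series peaks were II, 1527299 to 1661344 (134046 bp), 1861705 to 1968134 (106430 bp) and 2059712 to 2155497 (95786 bp). Neither replicate list had a peak inside any of them. The span from the start of the first to the end of the third was 628 kb long and held 27 whole-series peaks, or 43.0 per Mb. Of these, 10 overlapped both replicates, and the best one scored 187. This span was picked because it holds the longest gaps. Whether it is poor in mappable sequence was not tested. The median gap on II was 3470 bp, and 10% of gaps were longer than 21936 bp.

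The fullest window, II, 10500001 to 10600000, held 31 peaks, of which 9 overlapped both replicates. Its scores ran from 2.06 to 314.65. The best peak there, II, 10502332 to 10503264, scored 96.6 in replicate 1 and 353 in replicate 2. A second strong peak, II, 10563132 to 10563806, scored 256.56, with 196 in replicate 1 and 261 in replicate 2. Around these lay many weak peaks that only replicate 2 shared, such as II, 10545347 to 10545524 with a score of 2.06.

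The strongest peaks of II were spread over all 3 domains. The highest score on II belonged to a left-arm peak, II, 649877 to 650912 (1036 bp, score 345.16). Among all nuclear peaks it tied for place 3 with a peak of chromosome I. The II peak scored 195 in replicate 1 and 359 in replicate 2. It stood apart from other peaks, with 16124 bp to its left neighbour and 39694 bp to its right one. Next came a centre peak, II, 11096847 to 11097906 (1060 bp, 336.01), with 231 in replicate 1 and 354 in replicate 2. The third, II, 8569079 to 8570025 (947 bp, 334.45), scored 280 in replicate 1, the best replicate 1 score on II, and 352 in replicate 2. It lay near the seventh, II, 8560707 to 8561683 (977 bp, 319.94), which had the best replicate 2 score on II at 364 and a replicate 1 score of 272. In the fourth place was II, 7104596 to 7105823 (1228 bp, 331.62), scoring 222 and 333 in replicates 1 and 2.

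The rest of the 10 best were as follows. The peak at II, 5660457 to 5662255 (1799 bp, 320.45) overlapped 2 separate replicate 1 peaks, the better of which scored 109, and a single replicate 2 peak of 334. The best peak of the right arm was II, 13871968 to 13873141 (1174 bp, 320.43), with 163 in replicate 1 and 311 in replicate 2. Another left-arm peak, II, 1320365 to 1321327 (963 bp, 318.65), scored 194 and 334. The last 2 of the 10 were in the centre, at II, 11125888 to 11126961 (1074 bp, 317.32) and II, 9056684 to 9058046 (1363 bp, 315.75). All 10 overlapped both replicates and were 947 to 1799 bp wide.

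The order of the strong peaks was not the same in the replicates. The best-scored peak of II in the whole-series list had a lower replicate 1 score than the peaks in places 2, 3, 4 and 7. Over the 642 peaks of II that overlapped both replicates, the whole-series score had a Spearman's rho of 0.99 with the replicate 2 score and of 0.78 with the replicate 1 score, and the replicate scores had a rho of 0.74 with each other (Pearson's r 0.99, 0.73 and 0.71). The whole-series list is not independent of the replicates, and the authors' way of combining them is unknown here. Both ends of 67 II peaks coincided exactly with those of a replicate 2 peak, and 0 did so with a replicate 1 peak.

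Other left-arm and right-arm peaks came lower in the order. The third of the left arm, II, 254995 to 256058, scored 292.40 and was in place 21 on II. After its best peak, the right arm had II, 14154083 to 14155224 (302.47, place 15) and II, 14349165 to 14350185 (276.79, place 31). The centre held 35 of the 50 best peaks, the left arm 9 and the right arm 6. Of the 100 best nuclear peaks, 16 were on II, 27 on III, 22 on I, 19 on IV, 13 on V and 3 on X. Of all nuclear peaks, II held 15.0%, III 18.8%, I 19.9%, IV 17.5%, V 15.7% and X 13.1%, so the count on II was close to its share of the list.

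On II, 667 peaks overlapped replicate 1 (37.7%, 35.4 to 39.9), against 36.0% of all nuclear peaks. Replicate 2 was overlapped by 1691 (95.5%, 94.4 to 96.4), against 94.5%. Both replicates were overlapped by 642 (36.3%, 34.0 to 38.5), against 34.3%, and neither by 55 (3.11%, 2.39 to 4.02), against 3.84%. The share overlapping both fell to 15.4% when an overlap of at least 50% of both peaks was required. That rule also depends on width. The median width was 276 bp for replicate 1 peaks of II and 712 bp for whole-series peaks overlapping both replicates. The shares at 1 bp on II were near those of the whole genome, which include II itself. Other chromosomes ranged from 26.7% (X) to 36.8% (I) for overlap with both. A further 1049 peaks overlapped replicate 2 alone of the replicates and 25 replicate 1 alone.

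The score tracked the sharing closely. Median score and width were 101 and 712 bp for II peaks in both replicates, and 9.48 and 270 bp for those in replicate 2 alone. They were 6.17 and 206 bp for peaks in replicate 1 alone, and 4.18 and 160 bp for peaks in neither. All 200 best-scored peaks overlapped both replicates. In the best-scored 10% all 178 peaks were found in replicate 1, in the next 10% 160 of 177 (90.4%), and in the lowest 10% 5 of 177 (2.82%). In replicate 2, every peak in the 5 higher of the 10 groups was found, and 139 of 177 (78.5%) in the lowest 10%. Replicate 1 therefore set which peaks counted as shared over most of the score range. The whole-series score also rose with width (Spearman's rho 0.80 over 1771 peaks).

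**Figure D3:**
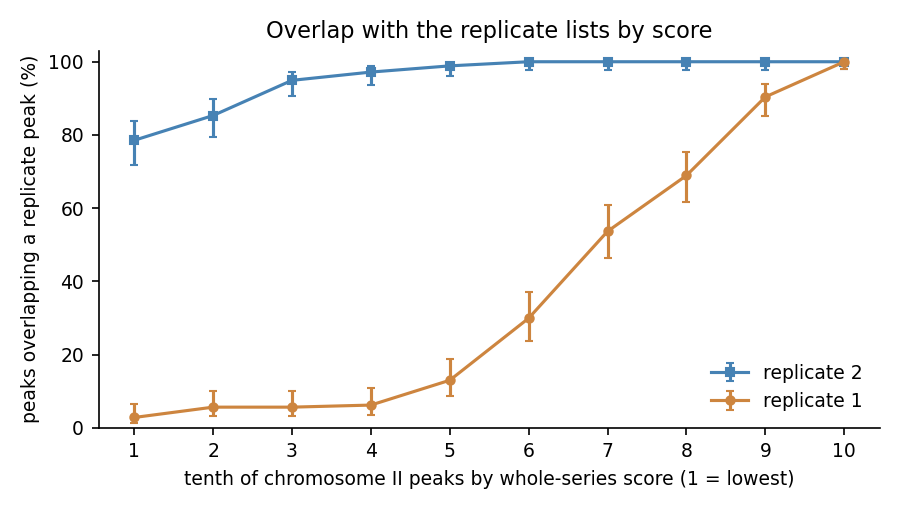
Share of chromosome II peaks (%, vertical axis) that overlap a peak of replicate 1 or replicate 2, in 10 groups of rising whole-series score; error bars are Wilson 95% intervals. Overlap with replicate 2 runs from 78.5% to 100% and overlap with replicate 1 from 2.82% to 100%.

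**Figure D4:**
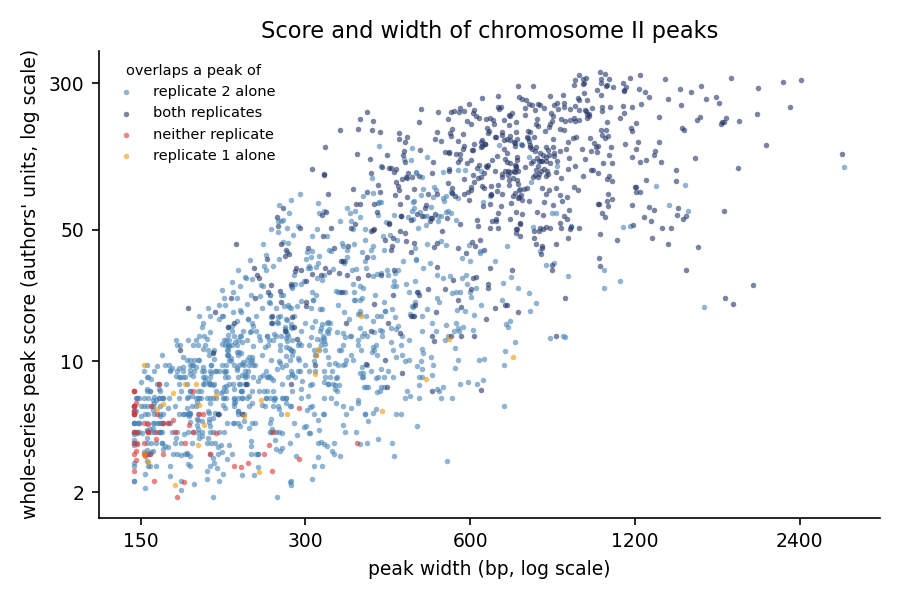
Whole-series score against width in bp, both on log axes, for each of the 1771 peaks of chromosome II, coloured by the replicate lists overlapped. Peaks in both replicates (median 712 bp, score 101) sit at the upper right, and those in neither (median 160 bp, score 4.18) at the lower left.

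The best-scored peak missing from a replicate was in place 201 of 1771, directly after the 200 best, which all overlapped both replicates. Among peaks in replicate 2 alone, the best were II, 5329817 to 5330560 (143.22, place 201), II, 13195103 to 13195779 (140.81) and II, 1084913 to 1085321 (140.11), 1 from each domain. Their replicate 2 scores were 158, 153 and 149. Peaks in replicate 1 alone were weaker. The best were II, 14338463 to 14338841 (17.34), II, 12845396 to 12845944 (13.06) and II, 5145302 to 5145617 (11.52). Each of these had a neighbouring peak at 246, 159 or 127 bp. Peaks in neither replicate scored at most 7.56, at II, 9752323 to 9752484, followed by a tie at 6.95 of II, 10838615 to 10838760 and II, 12108890 to 12109035. The last 2 were each 146 bp wide, the narrowest width in the list.

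Overlap with both replicates was 33.3% in the left arm (29.0 to 37.9), 38.1% in the centre (35.1 to 41.3) and 34.9% in the right arm (30.4 to 39.7). The difference between the centre and both arms was 4.04 percentage points, with a Newcombe 95% interval of -0.45 to 8.49 that includes 0. It turned to -1.58 points when an overlap of at least 50% of both peaks was required, a rule that also depends on peak width. Overlap with replicate 2 was 95.1% in the left arm, 96.9% in the centre and 92.5% in the right arm. Peaks in neither replicate made up 3.05% of the left arm (1.79 to 5.15), 2.33% of the centre (1.54 to 3.50) and 4.99% of the right arm (3.25 to 7.58). These intervals overlapped.

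At like score, the direction depended on the score group. In the middle of the 5 score groups (12.21 to 31.08), 27.8% of arm peaks overlapped both replicates (21.9 to 34.6), against 13.2% of centre peaks (8.86 to 19.1). In the next higher group the shares were 57.8% in the arms and 63.8% in the centre, and in the best-scored group 93.2% and 96.6%. The intervals overlapped in these last 2 groups and lay apart in the middle one. Groups were not matched for score within themselves, and ties at 12.21 were split by position.

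The share of replicate 1 peaks found again in replicate 2 was lower in the left arm than in the centre, and the intervals of the left and right arms overlapped. Of 179 replicate 1 peaks there, 152 overlapped replicate 2 (84.9%, 78.9 to 89.4), against 390 of 413 in the centre (94.4%, 91.8 to 96.3) and 152 of 169 in the right arm (89.9%, 84.5 to 93.6). Left-arm peaks also had the lowest median replicate 1 score, 9.05 against 13.58 in the centre and 10.08 in the right arm. Among the lowest-scored replicate 1 peaks of II (score 7.00 or less), 69.0% of 71 left-arm peaks were found in replicate 2 (57.5 to 78.6), 83.5% of 121 centre peaks (75.8 to 89.0) and 83.6% of 61 right-arm peaks (72.4 to 90.8). Among the best-scored ones (19.18 and above), 45 of 46 left-arm peaks, all 163 centre peaks and all 45 right-arm peaks were found. In the group between (7.01 to 19.18) the order of the arms was the other way, with 58 of 62 left-arm peaks found (93.5%), 126 of 129 centre peaks (97.7%) and 56 of 63 right-arm peaks (88.9%). The intervals of the domains overlapped in the lowest-scored group.

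Nearly all replicate peaks of II had a counterpart in the whole-series list. In replicate 1, 715 of 761 had one (94.0%, 92.0 to 95.4), and in replicate 2, 1687 of 1779 did (94.8%, 93.7 to 95.8). The 46 replicate 1 peaks outside it had a median score of 3.58 and the 92 of replicate 2 a median of 3.85, and none of either overlapped a peak of the other replicate. Of the 46, 21 lay in the left arm, 17 in the centre and 8 in the right arm. A counterpart was found for 88.3% of 179 left-arm replicate 1 peaks (82.7 to 92.2). The shares were 95.9% of 413 in the centre (93.5 to 97.4) and 95.3% of 169 in the right arm (90.9 to 97.6). The intervals of the 2 arms overlapped. The best of them were II, 2498965 to 2499161 (9.05), II, 5146248 to 5146597 (7.32) and II, 4643899 to 4644191 (5.81). In replicate 2 the best was II, 2881239 to 2881409 (7.42), followed by II, 1373070 to 1373267 and II, 11337843 to 11338024 at 6.78 each.

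Of the II peaks, 750 had another within 1 kb (42.3%, 40.1 to 44.7), 897 had the nearest beyond 1 kb and within 10 kb, and 124 had none within 10 kb (7.00%). The share with a neighbour within 1 kb was 26.0% in the replicate 1 list and 41.5% in the replicate 2 list. By domain, the share with a neighbour within 1 kb was 41.8% in the left arm, 40.9% in the centre and 46.4% in the right arm (41.6 to 51.3). The sparse left arm thus had about the same share of close neighbours as the dense centre. It differed in isolated peaks, which made up 10.8% of its peaks, against 5.30% in the centre and 6.98% in the right arm. Peaks with a close neighbour scored lower (median 13.65) than those at intermediate spacing (22.38) and isolated ones (26.74). In the same order, 32.3% (29.0 to 35.7), 38.9% (35.8 to 42.1) and 41.1% (32.9 to 49.9) of them overlapped both replicates. The interval of the isolated peaks overlapped those of the other groups.

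Runs of 3 or more peaks with gaps of at most 1 kb numbered 100 on II and held 378 peaks (21.3%), against 17.6% of peaks on V and 26.4% on III, the lowest and highest of the other chromosomes. The longest runs held 8 peaks each, at II, 6831815 to 6839319 and II, 6938925 to 6944136, and no peak of either overlapped both replicates. Scores in the first ran from 4.13 to 51.87, and all 8 of its peaks overlapped replicate 2 alone. The next run, at II, 8124634 to 8132052, had 7 peaks, of which 3 overlapped both replicates, and a best score of 231.61. The 2 longest runs lay in a stretch of 200 kb (II, 6800001 to 7000000) with 55 peaks, of which 12 overlapped both replicates.

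The widest peak of II lay just before the longest run. It spanned II, 6826766 to 6829660 (2895 bp), scored 108.40 and 111 in replicate 2, and had no replicate 1 peak. From its first base to the end of the run, 12554 bp held 9 whole-series peaks, 11 replicate 2 peaks and 0 replicate 1 peaks. Next in width, II, 9059893 to 9062765 (2873 bp, 125.91), scored 142 in replicate 2 and 3.90 in replicate 1. The third, II, 11633794 to 11636211 (2418 bp, 312.47), overlapped 3 separate replicate 1 peaks, the best of which scored 50.4, and a single replicate 2 peak of 341. At these 3 sites replicate 1 thus had no peak, a weak peak or several separate peaks where replicate 2 had a single one.

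Peaks of 1200 bp or more numbered 74 on II (4.18%), with 52 in the centre, 12 in the left arm and 10 in the right arm. Their median score was 125, and 68 of them (91.9%, 83.4 to 96.2) overlapped both replicates. On the other chromosomes such peaks made up 2.21% (X) to 4.03% (IV). More than 1 replicate 1 peak fell under 48 II peaks, and more than 1 replicate 2 peak under 16. In the other direction, neighbouring II peaks could be marked by the same replicate peak. For example, II, 221932 to 222077 (score 2.30) carried the same replicate 2 score, 243, as its neighbour 54 bp away. The overlap counts can therefore count a replicate peak more than once.

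Both ends of II carried a peak in each replicate. The ends of the other chromosomes were not compared here. The first, II, 1 to 266, scored 58.35, with 62.9 in replicate 1 and 40.8 in replicate 2. The last, II, 15279075 to 15279345, scored 42.07, with 45.7 and 33.8. At these 2 peaks the replicate 1 score was the higher number, unlike at the 10 best peaks, though scores of the lists may not share a scale. This was not particular to the ends. Peaks inside II with the same direction included II, 2716818 to 2717073 (27.1 in replicate 1 and 22.5 in replicate 2) and II, 8288751 to 8289780 (21.9 and 11.2). The bounds of the centre fell between peaks: II, 4857213 to 4857415 (11.24) was the last before the left bound and II, 4881832 to 4882136 (31.89) the first after it, and II, 12006647 to 12007130 (185.90) and II, 12023066 to 12023981 (51.54) were nearest to the right bound.

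For a comparison with the other chromosomes, each was split into 3 segments of equal length. The first segment of II held 25.9% of its peaks (23.9 to 28.0), the middle one 37.5% (35.3 to 39.8) and the last one 36.5% (34.3 to 38.8). On the other chromosomes the first segment held 30.0% (III, 28.1 to 31.9) to 37.1% (IV). Their middle segments held 31.5% (X) to 40.4% (V) and their last segments 26.9% (V) to 36.4% (III). The share in the first segment of II was lower than that of any other segment on any nuclear chromosome, with an interval that overlapped those of the last segments of V (24.9 to 29.0) and IV (27.2 to 31.2).

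The replicate lists gave like shares for II. Its first segment held 26.0% of the peaks of each replicate, and its last segment 35.7% in replicate 1 and 36.0% in replicate 2. Segments of other chromosomes came close to that 26.0%. The middle segment of X held 26.3% in replicate 1, and the last segment of V held 26.1% in replicate 2. Among first segments, that of III was nearest to II, with 26.8% in replicate 1 and 29.3% in replicate 2. In replicate 1 the interval of II (23.0 to 29.2) overlapped that of III (24.1 to 29.7). The share of peaks in the best-scored 20% of the nuclear list was 21.6% on II in the whole-series list (19.8 to 23.6), within the range of 13.4% (X) to 23.2% (I) on the others. In replicate 1 it was 23.3% on II (20.4 to 26.4), above the 10.0% (X) to 22.1% (I) of the others, with an interval that overlapped that of I (19.6 to 24.7). In replicate 2 it was 22.0%, within the range of 13.9% (X) to 22.8% (I).

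**Figure D5:**
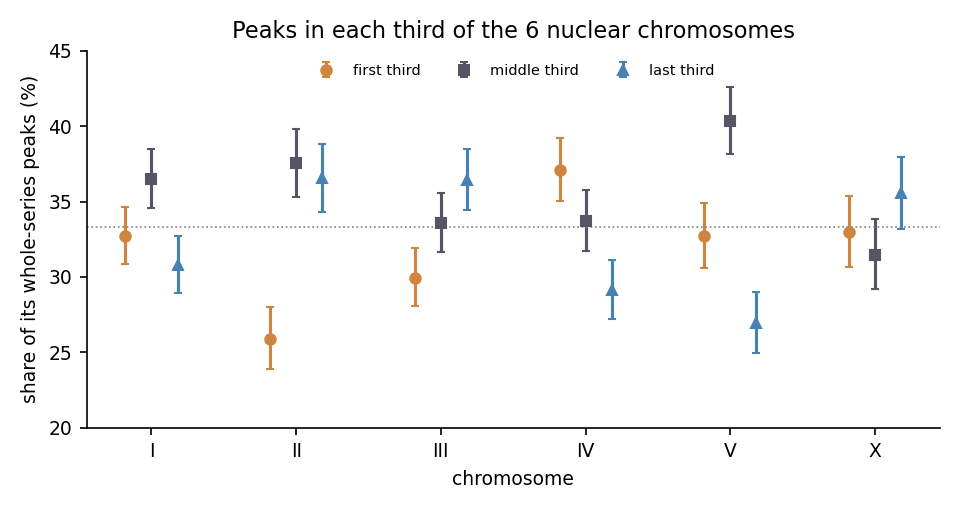
Share of whole-series peaks (%, vertical axis, starting at 20) in the first, middle and last of 3 equal segments of each nuclear chromosome, with Wilson 95% intervals; the dotted line marks an even spread. On chromosome II the first segment holds 25.9% of the peaks and the middle and last segments 37.5% and 36.5%.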

How the data were processed

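NURF-1 ChIP peaks were taken from 3 deposited lists, 1 per ChIP replicate and 1 for the whole series. The submitters' processing notes name BWA and the build ce10, and the file headers give WormBase WS220 for the coordinates. Column 2 of the deposited lists names MACS as the caller. Its version and thresholds, the use of input and the combining of replicates are unknown (not given in the sources used here). A row of a deposited list holds the ends of a peak and a score, which the authors give without a scale or unit. No list gives read counts, so depth is unknown.

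Python (3.11.15) was used, with pandas (2.3.3), NumPy (2.4.6), matplotlib (3.10.9) and SciPy (1.17.1). Chromosome lengths were the last base of the last peak in any list. Overlap meant at least 1 bp, and the overlap count was tested on simulated data. Close meant a gap of at most 1 kb between peak edges. Where several replicate peaks fell under a whole-series peak, the best score is given. Shares carry Wilson intervals and densities exact Poisson intervals. Named peaks were taken by rank: the 10 best-scored, the 3 best of each domain and of each replicate class, the 3 widest, the first and last, and those of the fullest window, longest run and longest gaps. So were the 3 best replicate peaks of each list outside the whole-series list. Shorter runs, other windows and the spans around gaps and runs were named after their values were seen. The members and lists were chosen with earlier results of these data known. Gene names at hand come with another build (WBcel235), so peaks were not assigned to genes, and no sequence is given.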

Additional observations from a re-analysis of the deposited data

How the results depend on the processing

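No paired analysis was possible because input libraries have no peak list here and no result comes from a test. Of 25 alternatives over 5 results, 12 stayed within the counting interval of the reported value, 12 moved beyond it and 1 reversed. The cause was not tested unless the alternative itself sets it. Alternatives that leave out a replicate are not independent checks, since replicate 2 overlapped 95.5% of II peaks. Density on II was 116 peaks per Mb as reported, 59.3 with only peaks at or above the median score, which removes peaks by construction, 107 with peaks under 200 bp apart merged, and 49.8 (replicate 1 list) to 116 (replicate 2 list) without the other replicate. The share overlapping both replicates was 36.3% as reported, 15.4% with an overlap of at least 50% of both peaks, also 15.4% with 50% of the whole-series peak, 67.4% at or above the median score, 95.5% without replicate 1 and 37.7% without replicate 2. The centre-to-arm ratio of 1.30 was 1.58 in covered bases and 1.20 with 3 equal segments, and stayed above 1 in all 6 alternatives. The centre-minus-arms difference of 4.04 points reversed to -1.58 with an overlap of at least 50% of both peaks. Without a replicate it becomes a difference in overlap with the other one, which was 2.60 points for replicate 1 and 3.09 for replicate 2. The share with a neighbour within 1 kb (42.3%) was 25.8% within 500 bp, 58.9% within 2 kb, 34.4% with close peaks merged, and 26.0% to 41.5% in the replicate lists.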
